A study of Mus musculus with 6 samples.

Results

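Protocadherins are the largest branch of the cadherin superfamily, and their messenger RNA was followed here in mouse embryonic stem (ES) cells on Affymetrix arrays. The members are all probe sets whose annotation gives a single gene symbol beginning with Pcdh: 62 probe sets of the 45101 on the array, which cover 35 genes. The rule reads the annotation only. They fall into 28 probe sets of 22 beta cluster genes, 1 probe set of the gamma cluster gene Pcdhgc4, 9 of the 4 delta1 genes (Pcdh1, Pcdh7, Pcdh9 and Pcdh11x), 16 of the 5 delta2 genes (Pcdh8, Pcdh10, Pcdh17, Pcdh18 and Pcdh19) and 8 of Pcdh12, Pcdh15 and Pcdh20. Probe sets that match several alpha cluster genes carry several symbols and are outside the rule.

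The study compared 3 genotypes of ES cells with 2 arrays each: W4, the wild type line, NcGFP ki/+, which carries the knock-in on 1 allele, and NcGFP ki/ki, which carries it on both. NcGFP is not explained by the labels; what is known of the study lets it be read as a fusion of N-cadherin and GFP, the green fluorescent protein, expressed from the E-cadherin gene Cdh1. All cells grew with the cytokine LIF on plates labelled EMFI, read here as embryonic fibroblast feeders at low density, and the series text gives 2 independent experiments for each genotype. Whether each knock-in genotype is 1 clone is not given. The RNA is from whole plates, so fewer cells of a type and less RNA per cell cannot be told apart.

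Protocadherins are membrane proteins with a row of extracellular cadherin repeats, and most bind the same protocadherin on a neighbouring cell. The alpha, beta and gamma clusters give neurons a surface identity: a neuron transcribes a few variable exons or genes of the cluster, under the control of CTCF, cohesin and DNA methylation. The delta protocadherins are scattered over the genome as single genes and are known for cell sorting, cell movement and axon outgrowth in the embryo and the brain. They lack the beta-catenin binding tail of E-cadherin and N-cadherin, and signal instead through partners such as the WAVE actin regulators.

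The results turn on 4 delta protocadherin genes, Pcdh7, Pcdh18, Pcdh19 and Pcdh8. Their promoter windows are 300 bases of RefSeq sequence on GRCm38.p6 that lie mostly before the gene's start. They are shown because 5 of the 9 probe sets of the first 3 genes put the arrays in the same order. The other probe sets of these genes and those of Pcdh8 did not. Capitals mark 3 motifs searched on both strands: the GC box (GGGCGG or CCGCCC), the CCAAT box (CCAAT or ATTGG) and the TATA box (TATAAA or TTTATA). The windows are chr5:57717831-57718130 on the plus strand for Pcdh7, chr3:49757267-49757566 on the minus strand for Pcdh18, chrX:133688944-133689243 on the minus strand for Pcdh19 and chr14:79771263-79771562 on the minus strand for Pcdh8, each written 5′ to 3′ on the gene's strand.
Pcdh7: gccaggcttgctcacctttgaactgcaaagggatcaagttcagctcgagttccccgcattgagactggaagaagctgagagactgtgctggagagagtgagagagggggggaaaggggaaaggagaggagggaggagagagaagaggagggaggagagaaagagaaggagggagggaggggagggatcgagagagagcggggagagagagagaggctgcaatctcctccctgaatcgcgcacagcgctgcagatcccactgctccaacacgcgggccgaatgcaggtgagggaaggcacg
Pcdh18: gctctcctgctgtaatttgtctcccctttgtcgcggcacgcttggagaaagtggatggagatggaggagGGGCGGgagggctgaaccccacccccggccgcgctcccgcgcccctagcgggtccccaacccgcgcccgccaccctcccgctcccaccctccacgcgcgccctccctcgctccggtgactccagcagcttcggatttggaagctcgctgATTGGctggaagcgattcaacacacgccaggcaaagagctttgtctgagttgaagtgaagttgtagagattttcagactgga
Pcdh19: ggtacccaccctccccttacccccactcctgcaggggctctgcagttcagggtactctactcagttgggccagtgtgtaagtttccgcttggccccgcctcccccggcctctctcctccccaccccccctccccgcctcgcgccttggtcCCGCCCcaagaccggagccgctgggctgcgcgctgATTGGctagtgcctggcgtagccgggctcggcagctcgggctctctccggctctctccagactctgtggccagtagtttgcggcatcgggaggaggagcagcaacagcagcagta
Pcdh8: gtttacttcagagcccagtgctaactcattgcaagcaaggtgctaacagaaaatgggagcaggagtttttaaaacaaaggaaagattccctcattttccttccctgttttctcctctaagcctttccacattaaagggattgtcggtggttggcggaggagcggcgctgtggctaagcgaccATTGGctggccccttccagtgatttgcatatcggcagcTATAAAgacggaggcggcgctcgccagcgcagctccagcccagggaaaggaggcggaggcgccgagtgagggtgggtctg
The Pcdh18 and Pcdh19 windows each held 1 GC box and 1 CCAAT box and no TATA box. The Pcdh8 window held 1 TATA box and 1 CCAAT box and no GC box. The Pcdh7 window, a purine-rich stretch, held none of the 3 motifs. Of all 32851 promoter windows of this length in the RefSeq table, 35.7% held a GC box, 37.4% a CCAAT box and 13.6% a TATA box, so the first 2 are common. CpG dinucleotides numbered 11 in the Pcdh7 window, 23 in Pcdh18, 18 in Pcdh19 and 14 in Pcdh8, all above the median of 7 over all windows. The windows of Pcdh10 and Pcdh17, delta2 genes with no probe set above background, also held 1 GC box each and no TATA box. Each of these windows held 2 CCAAT boxes, and CpG dinucleotides numbered 24 and 26. These matches describe the sequence only.

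The values are log2 intensities, on which a difference of 1 is a 2-fold change, and each array's values had medians of 49.97 to 53.3 before the log was taken. The table holds no detection calls, so background was read from 80 probe sets of odorant and vomeronasal receptor genes, which few tissues express. A probe set was called above background in a genotype when both arrays exceeded the 95th percentile of these receptors on the same array, which lay between 5.80 and 6.10. A value below that line is not evidence that the RNA was absent. Replicate arrays correlated over all probe sets with Pearson r of 0.997 in W4, 0.991 in NcGFP ki/+ and 0.976 in NcGFP ki/ki. The ES cell markers were present throughout: all 12 of the list were above background in every genotype, and Pou5f1 lay between 12.60 and 13.08. Cdh1 read 12.17 and 12.13 in W4, 11.66 and 10.62 in NcGFP ki/+, and 9.77 and 11.09 in NcGFP ki/ki. The knock-in arrays were all below W4, but ki/ki replicate 2 was above ki/+ replicate 2, and since the probes' position relative to the replaced part is not known here, Cdh1 does not check the labels. Cdh2, the gene of N-cadherin itself, read 8.27 and 8.46 in W4, 6.50 and 7.66 in NcGFP ki/+, and 7.88 and 9.11 in NcGFP ki/ki at 1 of its probe sets. At the other it read 8.12 and 8.16, 6.08 and 7.23, and 7.32 and 9.13. Both NcGFP ki/+ arrays and NcGFP ki/ki replicate 1 were thus below W4, which is not the direction of an added N-cadherin gene, and whether these probe sets can bind the RNA of the knock-in is not known here. The genotypes are therefore given as the arrays are labelled. Feeder fibroblast markers, 27 of 28 measured, also differed between arrays. Their median deviation from each gene's mean over the 6 arrays, which put the arrays in the order of Cdh2, was 0.14 and 0.27 in W4, -1.43 and -0.51 in NcGFP ki/+, and 0.01 and 1.46 in NcGFP ki/ki. None of these markers was at 0, and 27 were above background in W4, 24 in NcGFP ki/+ and 27 in NcGFP ki/ki.

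Few of the member protocadherin genes gave a signal above background in these ES cells. In W4, 4 of 62 probe sets (6.45%) were above background, against 44.5% of all probe sets on the array. In NcGFP ki/+ there were 3 (4.84%, against 42.3%), and in NcGFP ki/ki 5 (8.06%, against 43.1%). These were probe sets of Pcdh7, Pcdh18, Pcdh19 and Pcdhb16 alone. Of the 62, 54 were not above the line on any array. The median of the members lay between 3.95 and 4.06 on the 6 arrays, below the receptors' own medians of 4.10 to 4.40.

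**Figure D1:**
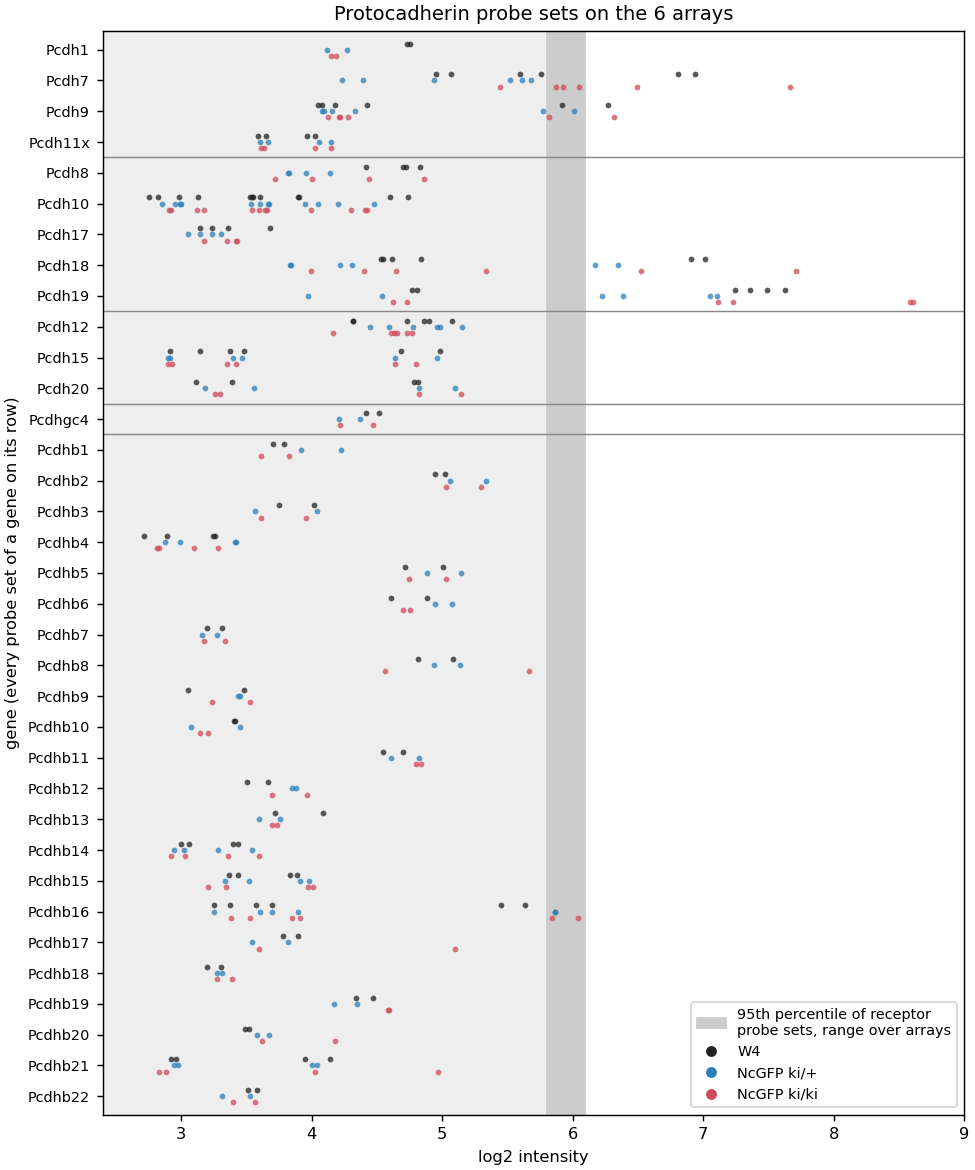
Log2 intensity (horizontal axis) of every protocadherin probe set on each of the 6 arrays, with 1 line for each of the 35 genes and colours for the genotypes. The grey band spans the receptors' 95th percentiles on the 6 arrays, 5.80 to 6.10. The points clearly to its right belong to Pcdh7, Pcdh18 and Pcdh19, and points of Pcdh9 lie just past it, up to 6.32.

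Pcdh19 was above background in all 3 genotypes. It is an X-linked delta2 protocadherin known from a human epilepsy of heterozygous females, and in zebrafish its protein forms a complex with N-cadherin. Probe set 1437360_at read 7.36 and 7.49 in W4, 6.22 and 7.11 in NcGFP ki/+, and 7.12 and 8.59 in NcGFP ki/ki. Both W4 values lay above both NcGFP ki/+ values, and the NcGFP ki/ki values fell on either side of W4. A second probe set, 1455145_at, read 7.24 and 7.63, then 6.38 and 7.05, then 7.23 and 8.60 in the same order of arrays. Both thus put NcGFP ki/+ lowest and NcGFP ki/ki replicate 2 highest. The third, 1444422_at, stayed below the line at 3.97 to 4.80, with both NcGFP ki/+ arrays again the lowest.

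Pcdh18, a delta2 protocadherin whose tail binds the adaptor Dab1 in mouse, was above background in all 3 genotypes through 1 of its 3 probe sets. Probe set 1422889_at read 6.90 and 7.01 in W4, 6.17 and 6.35 in NcGFP ki/+, and 6.53 and 7.71 in NcGFP ki/ki. NcGFP ki/+ replicate 1, at 6.17, passed only narrowly, against a line of 6.10 on that array. NcGFP ki/+ was below both other genotypes without overlap, and W4 lay inside the range of NcGFP ki/ki. The dimmer probe set 1422890_at read 4.53 and 4.84, 3.83 and 3.85, and 3.997 and 5.34, with the arrays in the same order. The values of 1430427_a_at stayed between 4.21 and 4.65, and NcGFP ki/+ was lowest there too.

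Pcdh7, the delta1 protocadherin first described as BH-protocadherin, which binds protein phosphatase 1 through its tail, was above background in W4 and in NcGFP ki/ki but not in NcGFP ki/+. Probe set 1449249_at read 6.80 and 6.94 in W4, 4.40 and 5.61 in NcGFP ki/+, and 6.05 and 7.66 in NcGFP ki/ki. NcGFP ki/ki replicate 1, at 6.05, passed only narrowly, against a line of 6.02 on that array. The NcGFP ki/+ arrays were the lowest, 1.22 apart from each other, and those of NcGFP ki/ki were 1.61 apart and enclosed W4. Probe set 1456214_at read 4.95 and 5.07, 4.23 and 4.94, and 5.44 and 6.49, so that NcGFP ki/ki was above both other genotypes. Probe set 1427592_at ranged only from 5.52 to 5.93. A further probe set that the authors' deposited table describes as Pcdh7, and that carries no symbol in the annotation used here, read 5.64 and 5.64 in W4, 4.44 and 5.51 in NcGFP ki/+, and 5.94 and 7.35 in NcGFP ki/ki. It put the genotypes in the same order as 1456214_at.

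The beta cluster, the largest group with 28 probe sets, lay between 2.71 and 6.04, and 27 of them were not above the line on any array. The exception was Pcdhb16, whose probe set 1441358_at read 5.63 and 5.45 in W4, 5.87 and 5.87 in NcGFP ki/+, and 6.04 and 5.84 in NcGFP ki/ki. It passed only in NcGFP ki/ki, by a margin of under 0.1, and its other 2 probe sets stayed between 3.25 and 3.91. Beta genes are related in sequence, so a probe set of 1 gene may bind RNA of another. This was not tested here, and the gene assignment of these probe sets is uncertain. The single gamma member, Pcdhgc4, ranged from 4.21 to 4.51. A probe set outside the rule, which the authors' deposited table describes by several gamma cluster genes, read 8.26 and 8.39 in W4, 8.10 and 8.22 in NcGFP ki/+, and 8.20 and 8.60 in NcGFP ki/ki. That probe set, 1423628_s_at, was above background in every genotype and the genotypes lay close together: NcGFP ki/ki differed from W4 by 0.08 (adjusted p = 0.939, limma) and NcGFP ki/+ by -0.16 (adjusted p = 0.804, limma). The 6 probe sets that match several alpha genes lay between 3.46 and 5.99, and 0 of them were above background.

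The other nonclustered members were not called above background in any genotype. Pcdh9, a delta1 gene of the developing brain, came closest: probe set 1442659_at read 5.92 and 6.27 in W4, 5.78 and 6.01 in NcGFP ki/+, and 5.82 and 6.32 in NcGFP ki/ki. It passed the line on replicate 2 of each genotype and on no replicate 1, so it was called in none. Pcdh8, the paraxial protocadherin of the early mesoderm, had its probe sets between 3.72 and 4.86. Pcdh1, found in epithelia, had values of 4.12 to 4.75. Pcdh12, a protocadherin of endothelium and trophoblast, lay between 4.17 and 5.15. Pcdh15, part of the tip link of inner ear hair cells, lay between 2.90 and 4.98. For Pcdh20 the range was 3.11 to 5.15, for Pcdh10 2.75 to 4.74 over 6 probe sets, for Pcdh17 3.05 to 3.68 and for the X-linked Pcdh11x 3.59 to 4.15, all genes best known from the nervous system. By position, 0 of the 33 probe sets of the 25 members on chromosome 18 were above background in W4, against 4 of the 29 probe sets of the 10 genes elsewhere.

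The genotypes were compared with limma, a linear model that pools the spread over probe sets, fitted to all probe sets whose log2 value exceeded 4 on at least 2 arrays. This kept 37950 probe sets, among them 33 members of 21 genes, and p-values were adjusted over all 37950 by the Benjamini-Hochberg method. The 29 members that were not kept lay between 2.71 and 5.10, and 5 of them exceeded 4 on a single array. No member passed an adjusted p of 0.05 in any of the 3 comparisons, and neither did any other probe set (0 of 37950, or 0%, in each); the smallest adjusted p on the array was 0.130, 0.0921 and 0.391 for NcGFP ki/ki against W4, NcGFP ki/+ against W4 and NcGFP ki/ki against NcGFP ki/+. At an unadjusted p under 0.05 the members counted 4, 4 and 5 in the same order. Of all 37950, the shares higher and lower were 4.04% and 4.90%, 4.52% and 5.97%, and 6.09% and 4.18%. With 2 arrays on each side, 0.333 is the smallest p that an exact permutation test allows. The comparisons share arrays and are not independent of each other.

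Against W4, the protocadherins of NcGFP ki/ki were spread evenly around no difference. The members' log2 differences had a median of 0.03, beside -0.01 over all probe sets, with 17 above and 16 below 0. The highest was Pcdh7 probe set 1456214_at at 0.96 (SE 0.38, adjusted p = 0.532, limma), while Pcdh7 1449249_at gave -0.02 (SE 0.57, 95% interval -1.39 to 1.36). Next came Pcdh19 1455145_at at 0.48 (SE 0.46, adjusted p = 0.825, limma) and Pcdhb21 at 0.45 (SE 0.30, adjusted p = 0.726, limma). Pcdhb21 owed this to 1 array: it read 3.95 and 4.14 in W4, then 4.03 and 4.97 in NcGFP ki/ki. Pcdh18 1422889_at differed by 0.16 (SE 0.36, 95% interval -0.70 to 1.02), and Pcdhb16 by 0.40 (SE 0.15, adjusted p = 0.526, limma). These intervals leave room for differences of 2-fold or more in Pcdh7, Pcdh18 and Pcdh19, so the data do not show that the genotypes were alike.

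The lowest members in NcGFP ki/ki were not the ones with the highest signal. Pcdh8 probe set 1417051_at read 4.72 and 4.83 in W4 and 4.44 and 3.72 in NcGFP ki/ki, a difference of -0.70 (SE 0.24, 95% interval -1.28 to -0.12, adjusted p = 0.472, limma). Both NcGFP ki/ki arrays lay below both W4 arrays, but all values were under the background line. The second Pcdh8 probe set, 1447825_x_at, gave -0.13 (SE 0.29) with overlapping genotypes. Pcdh1 read 4.75 and 4.73 in W4 against 4.15 and 4.19 in NcGFP ki/ki, a difference of -0.57 (SE 0.14, 95% interval -0.92 to -0.23, adjusted p = 0.321, limma). Pcdh12 probe set 1437928_at followed at -0.32 (SE 0.16, adjusted p = 0.632, limma). At an unadjusted p under 0.05 there were 2 members higher, Pcdh7 and Pcdhb16, against 4.04% of all probe sets, and 2 lower, Pcdh1 and Pcdh8, against 4.90%. Without overlap of arrays 9 of 33 members were higher and 5 lower, beside 17.3% and 21.2% of all probe sets. Over 2-fold differences were found in 0 members, against 1.40% of all tested probe sets.

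In NcGFP ki/+ the delta protocadherins Pcdh7, Pcdh8, Pcdh18 and Pcdh19 gave lower values than in W4, without passing the adjusted threshold. Pcdh7 1449249_at differed by -1.87 (SE 0.57, 95% interval -3.24 to -0.49, adjusted p = 0.369, limma). It was the only 1 of 33 members with more than a 2-fold difference, against 2.07% of all tested probe sets. Pcdh8 1417051_at read 3.82 and 3.83 in NcGFP ki/+ against 4.72 and 4.83 in W4, a difference of -0.95 (SE 0.24, 95% interval -1.53 to -0.37, adjusted p = 0.303, limma). Pcdh18 1422890_at gave -0.84 (SE 0.40, adjusted p = 0.525, limma) and its brighter probe set 1422889_at -0.70 (SE 0.36, adjusted p = 0.552, limma). The 3 probe sets of Pcdh19 gave -0.76, -0.72 and -0.53, and Pcdh1 gave -0.54 (SE 0.14, adjusted p = 0.311, limma). The highest were Pcdhb16 at 0.32 (SE 0.15), Pcdhb6 at 0.27 (SE 0.16) and Pcdh12 1450473_at at 0.26 (SE 0.15), all under 2-fold. Pcdhb6 read 4.61 and 4.88 in W4 and 4.95 and 5.07 in NcGFP ki/+, without overlap.

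Over the 33 members tested in this comparison the median was -0.08, beside 0.02 over all probe sets, with 12 above and 21 below 0. At an unadjusted p under 0.05 there were 0 members higher, against 4.52% of all probe sets, and 4 lower (Pcdh1, Pcdh7, Pcdh8 and Pcdh19), against 5.97%. Of these 4 only the Pcdh7 probe set, 1449249_at, was above background in either genotype; the Pcdh19 one was the dim 1444422_at, and the brighter Pcdh19 probe sets had unadjusted p = 0.17 and 0.16 (limma). Without overlap 8 were higher, against 28.0% of all, and 13 were lower, against 26.2%. Of those 13, 8 belonged to Pcdh7, Pcdh18 and Pcdh19, genes with 9 tested probe sets between them, and the rest to Pcdh1, Pcdh8, Pcdh10 and Pcdhgc4. Probe sets of 1 gene measure the same RNA and are not independent. The feeder markers were lower in NcGFP ki/+ in the same comparison, 26 of 27 without overlap, with a median of -1.15. Pcdh19 and Pcdh11x lie on the X chromosome, whose 968 tested probe sets had a median of -0.14. The tested Pcdh11x probe set, 1438889_at, went the other way, at 0.11 with both NcGFP ki/+ arrays above both W4 arrays.

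The call in this comparison depended on which arrays shared the estimate of spread. Fitted on the 4 arrays of NcGFP ki/+ and W4 alone, or with either NcGFP ki/ki array left out, which gives the same calls, 3 members passed: Pcdh8 1417051_at (adjusted p = 0.0268, limma on 4 arrays) and both Pcdh18 1422889_at and 1422890_at (adjusted p = 0.0455 and 0.0405). With array weights 3 passed as well, namely Pcdh1, Pcdh7 1449249_at (adjusted p = 0.0213, limma with array weights) and Pcdh8 1417051_at (adjusted p = 0.0154). All these were lower in NcGFP ki/+, but the probe sets of Pcdh8 and Pcdh1 and Pcdh18 1422890_at were under the background line on every array. Without NcGFP ki/+ replicate 1, 0 passed, with Pcdh7 1449249_at at -1.26 and Pcdh19 1437360_at and 1455145_at at -0.31 and -0.38. Over the whole array 1282 probe sets passed without an NcGFP ki/ki array, and 2172 with array weights.

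**Figure D2:**
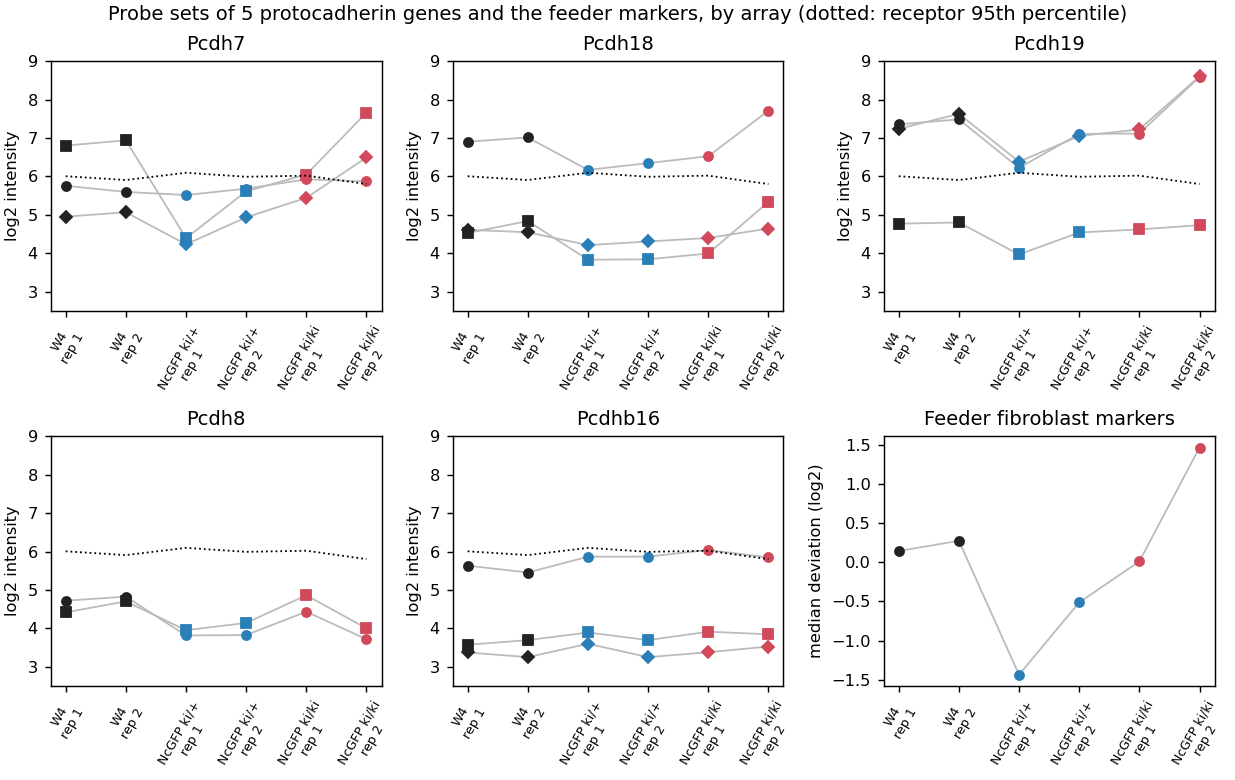
Log2 intensity of Pcdh7, Pcdh18, Pcdh19, Pcdh8 and Pcdhb16 probe sets on each array, with the dotted line at the receptors' 95th percentile, and in the last panel the median deviation of the feeder markers. The brightest probe sets of Pcdh7, Pcdh18 and Pcdh19 are lowest in NcGFP ki/+ and highest in NcGFP ki/ki replicate 2, as are the feeder markers; the dim Pcdh19 probe set 1444422_at is highest in W4 replicate 2, at 4.80.

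Between the knock-in genotypes the same 3 delta genes were higher in NcGFP ki/ki. All 9 of the tested probe sets of Pcdh7, Pcdh18 and Pcdh19 had both NcGFP ki/ki arrays above both NcGFP ki/+ arrays, with log2 differences of 0.26 to 1.85. Pcdh7 gave 1.85 (SE 0.57, 95% interval 0.48 to 3.23, adjusted p = 0.429, limma) at 1449249_at and 1.38 (SE 0.38, adjusted p = 0.429) at 1456214_at. Pcdh19 gave 1.20 (SE 0.46, adjusted p = 0.466, limma) and 1.19 (SE 0.49, adjusted p = 0.485) at its brighter probe sets, and Pcdh18 1422889_at 0.86 (SE 0.36, adjusted p = 0.485, limma). Against this, Pcdh12 1450473_at was at -0.36 (SE 0.15, adjusted p = 0.499, limma), Pcdhb6 at -0.28 (SE 0.16) and Pcdh12 1437928_at at -0.21 (SE 0.16). Pcdh8 1417051_at differed by 0.25 (SE 0.24) with overlap, and Pcdh1 by -0.03 (SE 0.14). No member passed the adjusted threshold.

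The median over the 33 was 0.08 in this comparison, beside -0.04 over all probe sets, with 23 above and 10 below 0. Differences over 2-fold were found in 4 of the 33, all of Pcdh7 and Pcdh19, against 2.63% of all tested probe sets. At an unadjusted p under 0.05 there were 5 higher, all of Pcdh7, Pcdh18 and Pcdh19, against 6.09% of all probe sets, and 0 lower, against 4.18%. Without overlap 10 were higher, against 15.7% of all, and 3 lower (Pcdhb6 and both Pcdh12 probe sets just named), against 20.4%. The tenth higher one was Pcdhb19, and of the 24 tested members of other genes it was the only one. The feeder markers were higher without overlap in 27 of 27, with a median of 1.78, and the X chromosome had a median of 0.24. Left out in turn, NcGFP ki/ki replicate 1 changed the call: without it 7 members passed, all higher (2 probe sets each of Pcdh7, Pcdh18 and Pcdh19, and Pcdhb21), among 4996 probe sets of the array. Without NcGFP ki/ki replicate 2 instead, 0 members passed and the differences between the knock-ins were smaller: 1.05 and 0.86 in Pcdh7 1449249_at and 1456214_at, 0.27 in Pcdh18 1422889_at, and 0.45 and 0.51 in Pcdh19. Omitting NcGFP ki/ki replicate 1 made 3 members pass between NcGFP ki/ki and W4, with Pcdh7 1456214_at and Pcdhb21 higher and Pcdh8 1417051_at lower, among 1796 of all.

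**Figure D3:**
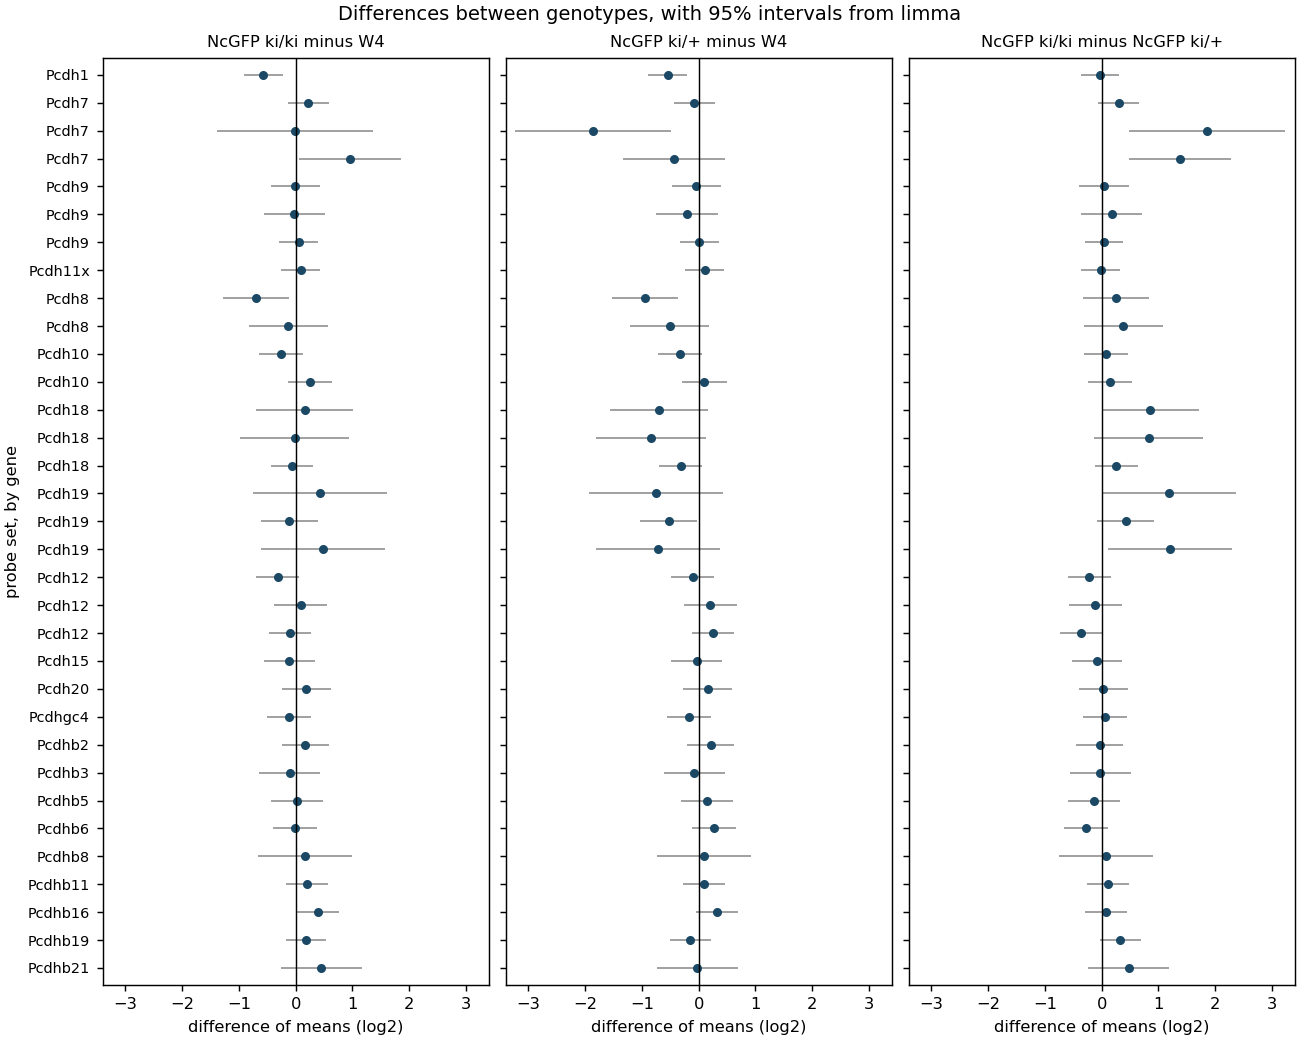
Log2 differences of the 33 tested protocadherin probe sets in the 3 comparisons, with bars for the 95% interval from limma. The widest intervals belong to Pcdh7, Pcdh18 and Pcdh19, with Pcdh7 at -1.87 in NcGFP ki/+ against W4 and at 1.85 in NcGFP ki/ki against NcGFP ki/+.

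The wide intervals of these genes came from a spread between replicate arrays. In W4, 0 members differed by more than 2-fold between the replicates, and in NcGFP ki/+ 1 did, Pcdh7, against 0% and 1.16% of all probe sets. In NcGFP ki/ki 8 of 62 did (12.9%), against 5.55% of all probe sets. They were 2 probe sets each of Pcdh7, Pcdh18 and Pcdh19, with Pcdhb17 and Pcdhb8. Pcdhb17 read 3.60 and 5.10 in NcGFP ki/ki and 3.54 to 3.90 on the other arrays, so that replicate 2 stood alone. Pcdhb8 ran the other way, at 5.66 in replicate 1 and 4.56 in replicate 2. All others of the 8 were higher in replicate 2.

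Across the 6 arrays, 5 member probe sets had the same order as the feeder marker median: NcGFP ki/+ replicate 1 lowest, then NcGFP ki/+ replicate 2, NcGFP ki/ki replicate 1, W4 replicate 1, W4 replicate 2 and NcGFP ki/ki replicate 2. These were Pcdh7 1449249_at, Pcdh18 1422889_at and 1422890_at, and Pcdh19 1437360_at and 1455145_at. Of all 37950 tested probe sets, 807 (2.13%) had this order. In all, 11 of the 62 members, 8 of them among the 33 tested, shared the highest and the lowest array with the feeder markers, as did 8.85% of all tested probe sets. The summed level of the markers ran from 13.51 to 14.44 in NcGFP ki/+, 15.03 to 15.23 in W4 and 14.99 to 16.40 in NcGFP ki/ki, as log2. When the marker median of each array was added to the fit as a covariate, which left 2 residual degrees of freedom, the difference of NcGFP ki/ki from NcGFP ki/+ became -0.15 for Pcdh7 1449249_at, -0.23 for Pcdh18 1422889_at, and -0.52 and -0.34 for Pcdh19 1437360_at and 1455145_at. Against W4, NcGFP ki/+ then differed by -0.49, 0.05, 0.42 and 0.34 in the same probe sets. The directions of these Pcdh18 and Pcdh19 probe sets thus turned in both comparisons. The marker median was lowest on both NcGFP ki/+ arrays, so this fit cannot tell marker level and genotype apart. Other probe sets of the same genes kept their sign at smaller size: Pcdh18 1422890_at was at -0.051 for NcGFP ki/+ against W4, and Pcdh7 1456214_at at 0.13 between the knock-ins and 0.57 for NcGFP ki/ki against W4. Pcdh8 1417051_at kept its sign, at -1.36 for NcGFP ki/+ and -0.52 for NcGFP ki/ki against W4, as did Pcdh1 at -0.56 for NcGFP ki/ki. Which cells on the plates held the Pcdh7, Pcdh18 and Pcdh19 RNA was not tested.

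**Figure D4:**
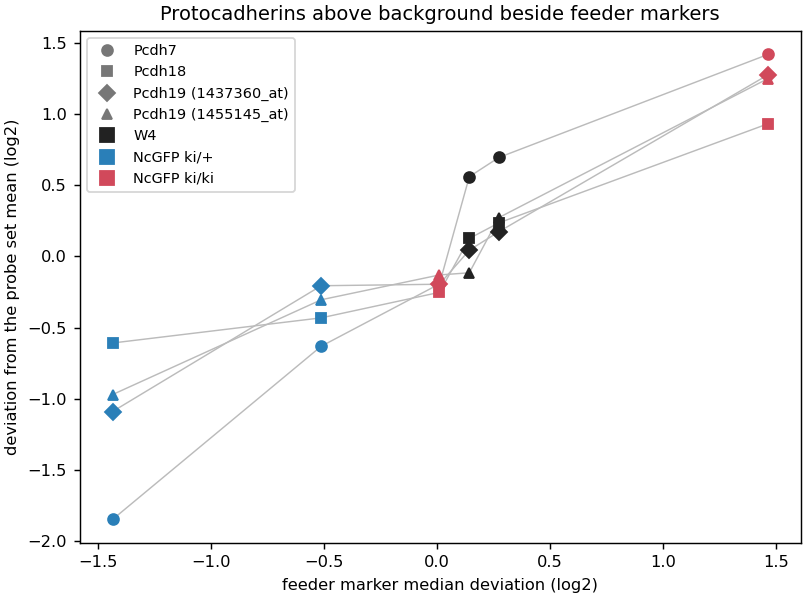
Deviation of 4 probe sets of Pcdh7, Pcdh18 and Pcdh19 from their mean over the 6 arrays (vertical axis, log2) against the median deviation of the feeder fibroblast markers on the same array (horizontal axis, log2). Each point is 1 array, and the arrays take the same order on both axes, from NcGFP ki/+ replicate 1 at -1.43 to NcGFP ki/ki replicate 2 at 1.46.

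RNA of the listed regulators of clustered protocadherin promoters was above background, each gene read at its brightest kept probe set. Of the cluster members, 27 of the 28 beta probe sets and that of Pcdhgc4 were not above the line on any array. The probe set described by several gamma genes, 1423628_s_at, was above it, and most alpha and gamma genes were not read singly. All 13 listed regulators, among them the insulator protein CTCF, the cohesin subunits and the DNA methyltransferases, were above background in each genotype, and 0 of 13 passed the adjusted threshold in any comparison. Their median difference was -0.13 for NcGFP ki/ki and -0.05 for NcGFP ki/+ against W4, and -0.08 between the knock-ins. Nipbl, which loads cohesin onto DNA, read 7.41 and 7.64 in W4, 8.78 and 8.55 in NcGFP ki/+, and 8.70 and 9.10 in NcGFP ki/ki. Both knock-ins lay above W4, by 1.14 (SE 0.20, adjusted p = 0.214, limma) and 1.38 (SE 0.20, adjusted p = 0.166). The other 4 Nipbl probe sets gave only -0.21 to 0.33 and -0.16 to 0.55. Dnmt3a, a de novo DNA methyltransferase, differed by -0.74 in NcGFP ki/ki (adjusted p = 0.494, limma), and its other probe sets by -1.51 to 0.09. Stag2, a cohesin subunit, had the smallest p after Nipbl in NcGFP ki/+ against W4, at -0.49 (adjusted p = 0.397, limma). Smc1a, another subunit, had the smallest between the knock-ins, at 0.56 (adjusted p = 0.435, limma). The other Smc1a probe sets gave -0.15 and 0.45 between the knock-ins, where Stag2 was at 0.33.

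Of 16 listed cytoplasmic partners of protocadherins, 14 were measured, and 13 were above background in W4, 13 in NcGFP ki/+ and 14 in NcGFP ki/ki. None passed the adjusted threshold (0 of 14 in each comparison), and at an unadjusted p under 0.05 there was 1 gene in each, a share of 14 near that of all probe sets (4.04% to 6.09% in each direction). Their medians were 0.04, -0.10 and 0.03 for NcGFP ki/ki against W4, NcGFP ki/+ against W4 and the knock-ins. The WAVE complex member Cyfip2 differed by 0.66 in NcGFP ki/+ from W4 (adjusted p = 0.371, limma) and by -0.57 in NcGFP ki/ki from NcGFP ki/+ (adjusted p = 0.451), where its other probe sets gave -0.97 and 0.08. Wasf1, the WAVE1 protein itself, was at -0.42 in NcGFP ki/ki against W4 (adjusted p = 0.515, limma) and at -0.19 in NcGFP ki/+. Ctnnb1, the beta-catenin gene, was on the list too, although the delta protocadherins lack the beta-catenin binding tail. It was at 0.29 in NcGFP ki/ki against W4, with its other probe sets at -0.13 and -0.01. Nckap1, another WAVE complex member, was at 0.36 between the knock-ins.

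The partners of Pcdh15 in the hair cell tip link were mostly under the line, as Pcdh15 was. Of 10 listed genes 8 were measured and 2, the myosin Myo7a and the scaffold Whrn, were above background. The smallest p-values belonged to Tmc1, a channel subunit, at 0.48 in NcGFP ki/+ (adjusted p = 0.378, limma) and 0.25 in NcGFP ki/ki against W4, to Ush1c at -0.29 in NcGFP ki/ki against W4, and to Lhfpl5 at 0.24 in NcGFP ki/+ against W4. Between the knock-ins Ush1c and Lhfpl5 were both at -0.32. Medians were -0.01, 0.18 and -0.25, and 0 of 8 passed in each comparison.

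Of 14 other large cadherins, 13 were measured and 5 were above background: Fat1, Dchs1, Celsr2, Celsr3 and Cdhr5. Fat1, a giant cadherin of cell polarity, read 10.99 and 11.31 in W4, 9.79 and 10.41 in NcGFP ki/+, and 10.15 and 11.52 in NcGFP ki/ki. It was lower in NcGFP ki/+ than in W4 without overlap, by a log2 difference of -1.05 (adjusted p = 0.482, limma), and differed by 0.74 between the knock-ins (adjusted p = 0.613) with overlap. The planar polarity gene Celsr1 differed by 0.40 and 0.45 from W4 in NcGFP ki/ki and NcGFP ki/+. It was under the background line on every array, and NcGFP ki/+ overlapped W4 (5.26 and 4.51 against 4.35 and 4.52). The photoreceptor cadherin Cdhr1 differed by 0.72 in NcGFP ki/ki against W4, which it owed to 1 array. Cdhr1 read 5.60 and 5.47 in W4, then 7.11 and 5.39 in NcGFP ki/ki. Cdhr5 was at -0.29 between the knock-ins. None passed (0 of 13 in each comparison, and 0 at an unadjusted p under 0.05), with medians of 0.06, 0.06 and 0.03.

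Markers of cells that often transcribe protocadherins were also read. Of 12 neural markers 10 were measured, and 4 were above background in W4, 4 in NcGFP ki/+ and 5 in NcGFP ki/ki. The neural progenitor filament gene Nes was at -0.65 in NcGFP ki/+ and -0.50 in NcGFP ki/ki against W4, and the neuronal Stmn2 at 1.08 and 0.82. Between the knock-ins Neurod1 was at -1.38 and Syp at 0.33. Neurod1 read 8.87 and 8.90 in NcGFP ki/+ and 6.50 and 8.52 in NcGFP ki/ki, so most of its difference came from NcGFP ki/ki replicate 1. Of 11 mesoderm and endoderm markers 10 were measured, and 5, 5 and 4 were above background in the same order. Eomes was at -0.79 and -0.74 and Foxa2 at -0.60 and -0.55 in NcGFP ki/+ and NcGFP ki/ki against W4. Foxa2 was under the background line on every array. Between the knock-ins Gata6 was at 0.36 (-0.14 and 0.02 at its other probe sets) and Kdr at -0.23. No gene of these lists, of the ES cell list or of the feeder list passed an adjusted p of 0.05 (limma). For the ES cell list the smallest p-values were those of Fgf4, at 1.23 in NcGFP ki/ki and 1.07 in NcGFP ki/+ against W4, Lin28a at -0.36 in NcGFP ki/ki (0.81 at its other probe set), Utf1 at 0.30 in NcGFP ki/+ and -0.38 between the knock-ins, and Esrrb at -0.28 between the knock-ins. For the feeder list they were Pdgfra at 1.23 (0.16 and 0.26 at its other probe sets) and Fstl1 at 0.96 in NcGFP ki/ki against W4, Twist1 at -1.39 and S100a4 at -1.18 in NcGFP ki/+ against W4, and Lum at 1.26 and Twist1 at 1.10 between the knock-ins. The part of these markers in the protocadherin values was not tested, and the covariate fit above cannot separate feeder marker level from genotype.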

How the data were processed

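Total RNA of 6 ES cell cultures was measured on Affymetrix arrays with biotin-labelled material. Per the series design text and the submitters' processing notes, the authors used simpleaffy for quality control, GCRMA with quantile normalization and limma, all of versions not given in the sources used here. In the deposited files each value is an intensity, judged linear from the right skew, and log2 of the deposited intensity was taken here. The combined table repeats these 6 columns (largest difference 0) next to 6 of another series, which were not used. Symbols came from the supplied probe annotation: 34958 probe sets had 1 symbol, 932 several and 9211 none; all 35 member symbols stood in the RefSeq table.

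Here limma 3.58.1 in R 4.3.3 was fitted to all 6 arrays by genotype, without 64 control probe sets, keeping 37950. The fit had 3 residual degrees of freedom, and was tested on simulated data. Arrays have no depth; with 2 arrays for each genotype their number limits the precision. P-values measure the spread between the independent experiments the series text names. Replicate numbers were not used to pair arrays in the main fit. Over all tested probe sets, deviations of same-numbered arrays correlated at -0.04, 0.14 and 0.06 (1 value for each pair of genotypes). These values do not tell whether same-numbered arrays shared an experiment. The feeder marker median was lower in replicate 1 than in replicate 2 of every genotype. The members and gene lists were chosen with earlier results of these data known. Named are every member above background, the 3 highest and 3 lowest members of each comparison, and the 2 genes with the smallest p in each list; Pcdh9, Pcdhb8, Pcdhb17 and Pcdhb19 were added after their values were seen. A gene of a list is represented by its brightest kept probe set. Alternatives were other filters, further quantile normalization, a fit on 4 arrays, array weights, a replicate block, a feeder covariate and leaving out each array.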

Additional observations from a re-analysis of the deposited data

How the results depend on the processing

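Without an array its genotype has 1 array, taken to vary like the others. The count of members past the adjusted threshold ran from 0 to 3 over the fits without 1 array for NcGFP ki/ki against W4, from 0 to 3 for NcGFP ki/+ against W4 and from 0 to 7 between the knock-ins. For NcGFP ki/+ against W4 it was 3 on 4 arrays and 3 with array weights. With the replicate block 0 members and 0 of all probe sets passed in each comparison. The members' median moved, for NcGFP ki/ki against W4, to 0.16 with a filter at log2 6, to -0.0265 with the feeder covariate and to between -0.0256 and 0.12 without 1 array; for NcGFP ki/+ against W4, to -0.11 with further quantile normalization, -0.0146 with no filter, -0.72 with the filter at 6, 0.0089 with the covariate and between -0.21 and -0.0449 without 1 array; between the knock-ins, to 0.12, 0.0391, 1.19 and -0.0289 under the same settings and between 0.0769 and 0.20 without 1 array. The filter at 6 keeps 5 members. With log2 above 7 as the line, 2 members were above background in W4, 0 in NcGFP ki/+ and 2 in NcGFP ki/ki. At the receptors' 99th percentile there were 0 in NcGFP ki/+ and 2 in NcGFP ki/ki, with W4 unchanged. Shares of all probe sets at these lines are not given here. At the 95th percentile with 1 array enough, 8 counted in NcGFP ki/ki. By single array, the members above it numbered 4 and 5 in W4, 3 and 4 in NcGFP ki/+, and 5 and 8 in NcGFP ki/ki. The shares of all probe sets were 45.1% and 46.8%, 43.3% and 45.6%, and 45.0% and 47.4%. With the covariate the sign turned for NcGFP ki/ki against W4 in Pcdh18 1422889_at (-0.18) and Pcdh19 1437360_at (-0.10), for NcGFP ki/+ against W4 in Pcdh18 1422889_at (0.0518) and Pcdh19 (0.42 and 0.34), and between the knock-ins in Pcdh18 1422889_at (-0.23), Pcdh19 (-0.52 and -0.34), Pcdh7 1449249_at (-0.15) and Pcdh12 1437928_at (0.011). Without 1 array NcGFP ki/ki against W4 ran from -0.43 to 0.75 in Pcdh18 1422889_at, from -0.30 to 1.17 and from -0.21 to 1.17 in Pcdh19, from -0.82 to 0.79 in Pcdh7 1449249_at and from -0.0186 to 0.92 in Pcdhb21, and between the knock-ins from -0.0215 to 0.17 in Pcdhb16. Beyond what the alternatives themselves change, the cause was not tested. Over all alternatives and named members, the sign and the side of the threshold stayed in 340 cases, 19 were newly past the threshold and 17 had the other sign. Many of these cases are not separate checks. The other filters, the 4-array fit, the replicate block and array weights left the differences of the members they kept unchanged. Leaving out an array of the genotype not compared repeated the 4-array fit. Signals under the receptors' line set no level.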
